A study of Homo sapiens with 17 samples.

Results

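The replication-dependent histone genes were examined in HepG2, a human liver carcinoma line that the labels give as wild type. The members are the genes whose symbol is H1-1 to H1-6 or an H2AC, H2BC, H3C or H4C gene with a number. That rule uses no measured value, but it was set with earlier results of these data known. The members are 69 of 63187 genes in the count table: 6 of H1, 17 of H2A, 18 of H2B, 13 of H3 and 15 of H4. Of 58372 peaks of open chromatin, 81 were assigned by the authors to 39 of these genes. Cells had grown for 4 days with 0, 2 or 10 µM 5-azacytidine, an analogue of cytidine that enters RNA and DNA and binds DNA methyltransferases covalently, and the medium was changed every day in all groups. RNA was measured in 3 libraries per dose, made with a total RNA kit. ATAC-seq, which reads open chromatin from where a transposase can insert adapters, gave 3 libraries for 0 µM, 3 for 2 µM and 2 for 10 µM. All libraries come from a single tumour line, and no label says that they came from separate cultures, so p-values measure only the spread between these libraries, which may be technical.

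Nucleosomes wrap DNA around a core of H2A, H2B, H3 and H4, and the linker histone H1 binds where the DNA enters and leaves. The replication-dependent genes supply these proteins when DNA is copied: they are transcribed in S phase, sit in clusters, mostly lack introns, and give messages that end in a stem-loop instead of a poly(A) tail. The stem-loop is bound by SLBP, the message is cut with the help of the U7 snRNP, and it is degraded quickly when DNA synthesis stops. Because many copies code for the same protein, a cell can draw its histone supply from some of them and leave others unused. Total RNA libraries can capture messages without a poly(A) tail, which libraries selected for poly(A) would miss.

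Of the 69 genes, 55 lie on chromosome 6 between positions 25726063 and 27893891 (hg38), in 3 blocks of 32, 5 and 16 genes and an outlying pair, H2AC1 and H2BC1. Another 11 lie at 1q21, 2 at 1q42, and H4C16 stands alone on chromosome 12. Some sequence elements were more frequent in their promoters than in all promoters. RefSeq windows (GRCh38.p14) of 250 bases before and 50 bases after the gene start were found for 64 of the 69 genes, in 68 windows. CCAAT, searched on both strands, was present in 85.3% of these windows and in 34.6% of all 35116 windows. It was in 100% of H1, H2A, H2B and H3 windows but in 23.1% of H4 windows, below the share of all windows. TATAAA was present in 66.2% of member windows and in 11.5% of all windows. The octamer ATTTGCAT was present in 39.7% of member windows and in 1.77% of all, and it divided the types: 75.0% of H2B and 68.8% of H2A windows held it, against 7.69% of H3 windows and 0 H1 or H4 windows. The words may share letters where they meet, and each was searched on its own. A match describes letters in these windows only.

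4 promoter windows are shown, for each of H3 and H2B that of a gene that rose at 2 µM and that of an abundant gene that fell at 10 µM. H3C1 (chr6:26020201-26020500, plus strand) was nearly silent at 0 µM and rose at 2 µM, and H3C2 (chr6:26032050-26032349, minus strand) was the most abundant H3 gene. CG dinucleotides, the sites that DNA methyltransferases act on, are in capitals: H3C1 has 9 and H3C2 has 6, against a median of 11 in member windows and 14 in all windows.
H3C1: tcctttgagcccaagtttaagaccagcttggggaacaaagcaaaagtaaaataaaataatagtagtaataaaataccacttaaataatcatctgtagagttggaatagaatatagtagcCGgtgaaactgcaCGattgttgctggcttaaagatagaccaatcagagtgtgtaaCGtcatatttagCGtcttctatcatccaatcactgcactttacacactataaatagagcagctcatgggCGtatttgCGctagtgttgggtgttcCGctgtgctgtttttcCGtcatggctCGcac
H3C2: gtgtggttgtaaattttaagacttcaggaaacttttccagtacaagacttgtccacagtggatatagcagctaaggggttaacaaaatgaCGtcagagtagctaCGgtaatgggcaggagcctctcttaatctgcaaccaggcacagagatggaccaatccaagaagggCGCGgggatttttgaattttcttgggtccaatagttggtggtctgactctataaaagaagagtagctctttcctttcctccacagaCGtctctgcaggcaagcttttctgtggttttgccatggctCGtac
H2BC6 (chr6:26183511-26183810, plus strand) rose at both doses, and H2BC3 (chr6:26043664-26043963, minus strand) was among the H2B genes that fell most at 10 µM. Here capitals mark the 3 elements named above, on either strand.
H2BC6: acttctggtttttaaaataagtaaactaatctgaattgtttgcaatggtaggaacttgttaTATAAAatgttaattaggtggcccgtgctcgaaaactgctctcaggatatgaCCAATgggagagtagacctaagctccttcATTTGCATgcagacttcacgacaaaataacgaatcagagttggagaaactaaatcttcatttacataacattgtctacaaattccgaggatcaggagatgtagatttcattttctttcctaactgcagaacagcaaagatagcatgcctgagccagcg
H2BC3: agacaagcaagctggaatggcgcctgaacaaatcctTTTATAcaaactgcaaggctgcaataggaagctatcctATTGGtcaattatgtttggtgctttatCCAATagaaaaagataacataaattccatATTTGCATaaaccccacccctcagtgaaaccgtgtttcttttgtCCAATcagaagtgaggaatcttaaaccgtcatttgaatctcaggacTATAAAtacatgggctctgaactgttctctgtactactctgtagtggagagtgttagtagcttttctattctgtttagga
Both H2B windows hold all 3 elements, so their presence did not separate this riser from this gene that fell. The number and place of the matches differ between the windows, and a single pair cannot speak for the family.

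Depth and identity were as follows. Each RNA library had 35553052 to 46430168 reads counted in genes, and each ATAC library 2896671 to 7864321 reads counted in peaks. Levels are in CPM, the reads of a gene scaled to the library's size, and errors are SE for log2 changes and SD for levels. All 11 hepatocyte markers were measured at 0 µM and all 11 fell at 10 µM, with a summed level of 1367, 2184 and 1798 CPM at 10 µM against 46184, 32569 and 57694 CPM at 0 µM. Among markers of other cell types, PTPRC and KDR, from the leukocyte and endothelial lists, had 0 reads at 0 µM. On each of these lists of 5 genes 2 passed the count filter. At 2 µM against 0 µM 3 of the 11 hepatocyte markers fell, 1 endothelial marker rose and 1 leukocyte marker fell. The summed level of the hepatocyte markers was 18464, 19403 and 31157 CPM at 2 µM, below every 0 µM library. The summed level of the leukocyte markers was 2331 to 3452 CPM at 0 µM and 58.0 to 89.6 CPM at 10 µM. LYZ, on the leukocyte list, was abundant at 0 µM and fell at 10 µM (mean 73.4 CPM, against 2747 CPM at 0 µM). The summed level of 6 fibroblast and stellate markers was 0.519 to 0.789 CPM at 10 µM and 5.43 to 24.4 CPM at 0 µM, and that of 5 endothelial markers was 0.407 to 0.95 CPM at 10 µM and 1.49 to 10.5 CPM at 0 µM. The part of these changes in the histone results was not tested. CPM is a share of all reads, so fewer cells making a message and less of it per cell cannot be told apart. Members are close copies of one another, and reads that fit several copies could be divided between them in a way the counting decides. This holds most for the near-identical 1q21 pairs H2AC18 and H2AC19, H3C14 and H3C15, and H4C14 and H4C15.

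At 0 µM, 51 of 69 genes had a mean of at least 1 CPM. H3C2 had 1320 CPM per kb of gene, the linker histone genes H1-2 and H1-4 had 1469 and 1262 CPM per kb, and H4C3 had 985 CPM per kb. H2BC17 led H2B with 736 CPM per kb among genes with a span under 1 kb, and H2AC6 led H2A with 653 CPM per kb. H1-2 and H1-4 together made up 90.2% of the summed H1 level, a share of reads not corrected for gene length, and H3C2, H3C10 and H3C3 made up 43.1%, 27.2% and 25.4% of H3. H2A and H2B were drawn from more genes, with the first 2 genes giving 31.3% of H2A and 33.5% of H2B. Another 18 genes were under 1 CPM, and 6 had no read at 0 µM. H2BC26, H3C4 and H4C7 had no read in any library. H3C4 overlaps H2AC7 in RefSeq, and no source used here says how reads in the overlap were counted.

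**Figure D1:**
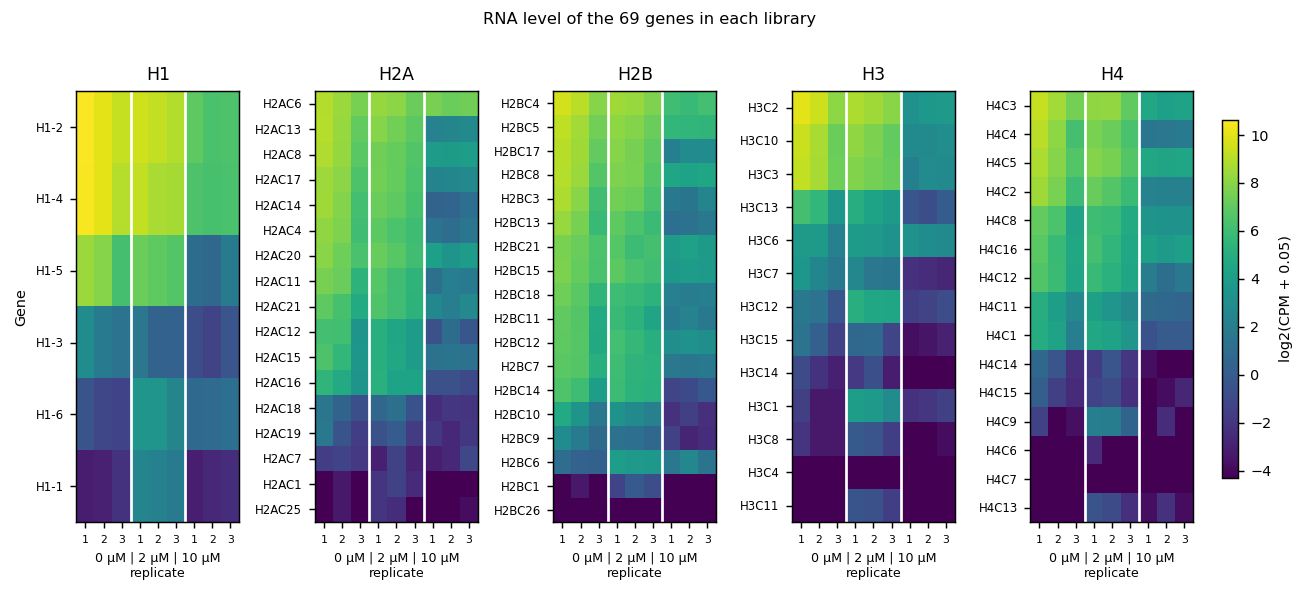
Each row is 1 of the 69 genes and each column 1 RNA library, in order of dose, with colour giving log2(CPM + 0.05) and genes sorted by their mean at 0 µM. Most rows dim at 10 µM, a few near the bottom brighten at 2 µM, and 0 µM replicate 3 is dimmer than the other 0 µM libraries.

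The 0 µM libraries differed among themselves more than those of the other doses. The summed level of all 69 genes was 15684, 10387 and 4274 CPM in replicates 1, 2 and 3 at 0 µM, 7304, 5752 and 3913 CPM at 2 µM, and 785, 679 and 732 CPM at 10 µM. All 51 genes of at least 1 CPM at 0 µM were lowest in 0 µM replicate 3, where replicate 1 was higher by a median of 4.38 times (1.64 to 11.3 times). A list of 49 S phase genes, such as MCM, GINS and DNA polymerase genes, was also lower in replicate 3 than in the other 0 µM libraries. Its sum was 6518, 6121 and 2759 CPM at 0 µM, 4388, 4151 and 4386 CPM at 2 µM, and 1389, 1536 and 1504 CPM at 10 µM. At 2 µM the list did not follow the decline of the histone sum from replicate 1 to replicate 3. The part of S phase in the histone values was not tested. Member results that depend on 0 µM replicate 3 are given with and without it.

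With 10 µM the family fell almost as a whole. Of the 61 genes that passed the count filter, 52 fell, 2 rose and 7 were not called, where 25.1% of all genes tested fell and 23.0% rose. The members' median log2 change was -4.24, a fold of 18.9 lower, against -0.02 over all genes. H3C11 and H2BC1 had no more than 3 reads in either group, and without them the median was -4.26. The remaining 8 of 69 genes did not pass the filter: H2AC1, H2AC25, H2BC26, H3C4, H3C14, H4C6, H4C7 and H4C13. The median depended on the 0 µM libraries: it was -3.46 over 62 members without 0 µM replicate 1, and -4.64 over 63 members without replicate 3. Without 0 µM replicate 1, 21 of the 54 called genes moved by more than 1.5 times in fold, all toward 0, and without replicate 2 or 3 at that dose none did.

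All histone types lost most of their summed level. H3 lost most, with 32.4, 35.9 and 37.0 CPM at 10 µM against 2466, 1625 and 609 CPM at 0 µM, 44.6-fold lower by the means. H4 had 93.6, 74.9 and 84.7 CPM at 10 µM against 2392, 1335 and 496 CPM at 0 µM, 16.7-fold lower. H2B had 197, 198 and 204 CPM at 10 µM against 4269.9, 2861 and 1098 CPM at 0 µM, 13.7-fold lower. The H2A sum was 9.25-fold lower, with 248, 206 and 230.0 CPM at 10 µM against 3246, 2231 and 845 CPM at 0 µM. The H1 sum was 12.4-fold lower, with 215, 164 and 176 CPM at 10 µM against 3309.9, 2335 and 1226 CPM at 0 µM. These folds moved with the 0 µM libraries, in a calculation added after seeing the data: without replicate 1 they were 31.8 for H3, 10.9 for H4, 9.92 for H2B, 6.75 for H2A and 9.63 for H1, and without replicate 3 they were 58.3, 22.1, 17.9, 12 and 15.3 in the same order. In all 5 types the 10 µM libraries lay below every 0 µM library. The 10 µM libraries also lay close together, with an SD of 53.2 CPM on a summed mean of 732 CPM, against 5710 CPM on a mean of 10115 CPM at 0 µM.

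**Figure D2:**
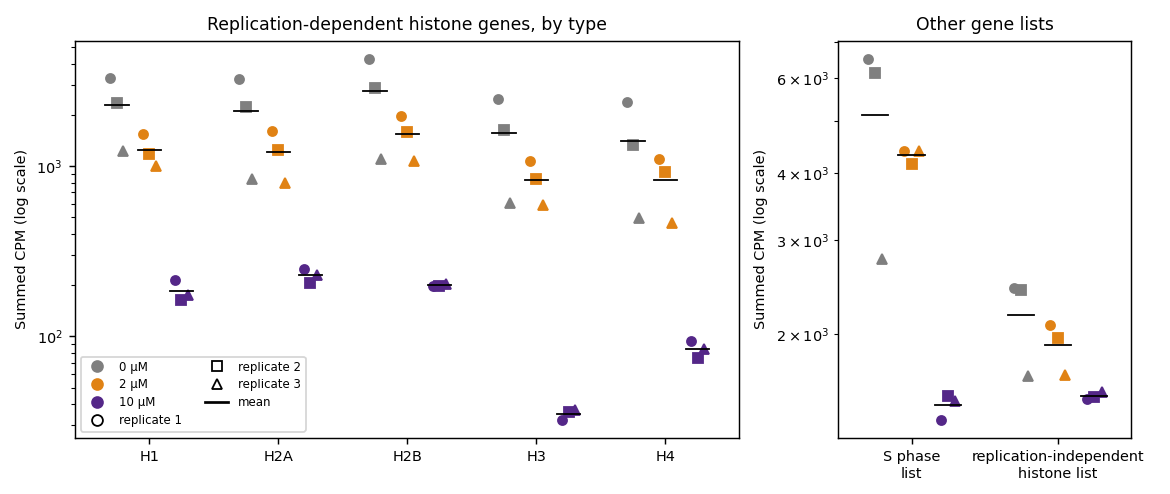
Summed CPM (log scale) of each histone type in each RNA library at 0, 2 and 10 µM, beside the S phase list and the list of replication-independent histones, with marker shape giving the replicate and the bar the mean. The 10 µM sums of H3 sit between 32.4 and 37.0 CPM, below every other type, and the triangle of 0 µM replicate 3 is the lowest at its dose throughout.

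Among linker histones, which compact the chromatin fibre, 4 of 6 genes fell and 1 rose. H1-2 had 123, 83.0 and 88.2 CPM at 10 µM, against 1529.7, 1046 and 645 CPM at 0 µM (log2 change -3.45 ± 0.31, adjusted p = 2.81e-06). H1-4 had 87.8, 77.5 and 81.2 CPM at 10 µM, against 1431, 1046 and 503 CPM at 0 µM (log2 change -3.60 ± 0.34, adjusted p = 3.63e-06). H1-5 had 1.89, 1.58 and 3.34 CPM at 10 µM, against 341, 239 and 75.8 CPM at 0 µM (log2 change -6.59 ± 0.54, adjusted p = 1.32e-06). These 3 genes carried nearly all H1 reads at 0 µM, and H1-5 had the largest log2 change. H1-3 fell as well (log2 change -3.06 ± 0.51, adjusted p = 3.41e-04), with a log2 change of -2.47 without 0 µM replicate 1. H1-6 had 1.70, 1.86 and 2.14 CPM at 10 µM, against 0.688, 0.412 and 0.358 CPM at 0 µM, and it rose (log2 change 1.98 ± 0.37, adjusted p = 8.19e-04). H1-6 codes for a linker histone known from testis. H1-1 was low at both doses and was not called (log2 change 0.03 ± 0.54, adjusted p = 0.966).

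For H2A, 14 of 15 tested genes fell. H2AC14 had 1.29, 1.44 and 2.2 CPM at 10 µM, against 365, 236 and 73.2 CPM at 0 µM (log2 change -7.09 ± 0.57, adjusted p = 1.16e-06), the deepest fall of the family by the fit. H2AC4 had 2.58, 2.00 and 2.89 CPM at 10 µM, against 289, 216 and 67.2 CPM at 0 µM (log2 change -6.26 ± 0.50, adjusted p = 1.13e-06). H2AC13 had 4.95, 5.59 and 6.79 CPM at 10 µM, against 500.1, 329 and 132 CPM at 0 µM (log2 change -5.79 ± 0.47, adjusted p = 1.24e-06). The groups do not overlap in any of these genes. H2AC6 fell by less than these genes, and its 0 µM replicate 3 lay within the range of its 10 µM libraries. H2AC6 had 189, 152 and 166 CPM at 10 µM, against 491, 337 and 188 CPM at 0 µM (log2 change -1.0 ± 0.32, adjusted p = 0.0200). Its call was lost with scaling by total counts (adjusted p = 0.0573). Leaving out 0 µM replicate 1 ended it as well (adjusted p = 0.113), and so did leaving out either of replicates 2 and 3 at 10 µM (adjusted p = 0.0809 and 0.0628). H2AC6 made up 74.2% of the summed H2A level at 10 µM, against 16.1% at 0 µM. The next gene at 10 µM, H2AC8, held 6.66%, and it had 15.2, 14.4 and 16.0 CPM at 10 µM against 467, 313 and 111 CPM at 0 µM. H2AC7, at or under 0.404 CPM in all libraries, was not called (log2 change -0.54 ± 0.78, adjusted p = 0.593). H2AC19 lost its call without 0 µM replicate 1 (adjusted p = 0.138).

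For H2B, 15 of 17 tested genes fell. H2BC14 had 0.383, 0.461 and 0.809 CPM at 10 µM, against 93.2, 65.0 and 16.5 CPM at 0 µM (log2 change -6.71 ± 0.61, adjusted p = 2.76e-06). H2BC17 had 4.38, 7.28 and 7.32 CPM at 10 µM, against 529, 369.8 and 132 CPM at 0 µM (log2 change -5.76 ± 0.49, adjusted p = 1.86e-06). H2BC7 had 3.11, 2.94 and 3.24 CPM at 10 µM, against 111, 98.3 and 34.4 CPM at 0 µM (log2 change -4.71 ± 0.41, adjusted p = 2.00e-06). H2BC4 and H2BC5, the H2B genes with the highest means, had smaller log2 changes. H2BC4 had 65.9, 56.2 and 71.3 CPM at 10 µM, against 801, 554 and 246 CPM at 0 µM (log2 change -3.05 ± 0.36, adjusted p = 2.29e-05). H2BC5 had 47.1, 46.2 and 44.5 CPM at 10 µM, against 601, 378 and 177 CPM at 0 µM (log2 change -3.07 ± 0.37, adjusted p = 2.76e-05). H2BC3 had a log2 change of -6.05, and -5.38 without 0 µM replicate 1. Together H2BC4 and H2BC5 held 55.3% of H2B at 10 µM and 33.5% at 0 µM. H2BC6 rose, with 3.04, 5.98 and 2.65 CPM at 10 µM against 1.97, 1.26 and 1.20 CPM at 0 µM (log2 change 1.40 ± 0.35, adjusted p = 0.00490). H2BC1, the testis H2B gene, had 0 reads at 10 µM and 2 at 0 µM, too few for a fold.

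For H3, 8 of 11 tested genes fell, and these include the genes that carried the type. H3C2 had 9.45, 12.8 and 13.3 CPM at 10 µM, against 1037, 715 and 270.3 CPM at 0 µM (log2 change -5.83 ± 0.46, adjusted p = 1.02e-06). H3C10 had 7.03, 6.73 and 7.99 CPM at 10 µM, against 697, 428 and 155 CPM at 0 µM (log2 change -5.88 ± 0.50, adjusted p = 1.83e-06). H3C3 had 4.38, 7.32 and 6.92 CPM at 10 µM, against 623, 409 and 163 CPM at 0 µM (log2 change -6.0 ± 0.46, adjusted p = 8.79e-07). All 3 went down by a similar log2 change, and no library of one dose reached those of the other. H3C6 did not follow them. H3C6 had 10.1, 7.80 and 6.75 CPM at 10 µM, against 13.3, 14.2 and 4.56 CPM at 0 µM (log2 change -0.38 ± 0.36, adjusted p = 0.410). The H3C6 libraries overlap between doses, and the gene made up 23.5% of H3 at 10 µM. H3C1 was not called (log2 change 0.79 ± 0.65, adjusted p = 0.335). H3C8 had 1 read at 10 µM and 10 reads at 0 µM, a ratio of 13.0 (95% counting interval 1.85 to 566), and its call was lost in 5 alternatives.

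For H4, 11 of 12 tested genes fell. H4C4 had 2.87, 3.06 and 3.54 CPM at 10 µM, against 545, 279 and 76.4 CPM at 0 µM (log2 change -6.57 ± 0.64, adjusted p = 4.67e-06). H4C2 had 4.93, 4.77 and 4.55 CPM at 10 µM, against 358, 195 and 60.1 CPM at 0 µM (log2 change -5.43 ± 0.56, adjusted p = 7.55e-06). H4C3 had 25.3, 17.5 and 19.6 CPM at 10 µM, against 637, 381 and 179.8 CPM at 0 µM (log2 change -4.26 ± 0.45, adjusted p = 9.14e-06). Without 0 µM replicate 1 the log2 changes of H4C4 and H4C2 were -5.82 and -4.75. H4C4 was the second H4 gene at 0 µM and no longer among the first 4 at 10 µM. H4C5 led H4 at 10 µM with 24.7, 21.6 and 23.5 CPM, against 447, 244 and 99.2 CPM at 0 µM (log2 change -3.50 ± 0.46, adjusted p = 5.27e-05). H4C16, the isolated gene on chromosome 12, fell least among the called H4 genes. H4C16 had 18.5, 13.1 and 17.4 CPM at 10 µM, against 113, 56.8 and 25.3 CPM at 0 µM (log2 change -1.99 ± 0.47, adjusted p = 0.00365). Without 0 µM replicate 1 the log2 changes of H4C5 and H4C16 were -2.89 and -1.33. H4C15 lost its call when 0 µM replicate 1 was left out (adjusted p = 0.105), and also when replicate 1 or 2 at 10 µM was (adjusted p = 0.051 and 0.0596). H4C14 had 1 read at 10 µM and 84 reads at 0 µM, a ratio of 109 (95% counting interval 19.1 to 4375). H4C9 was not called (log2 change -1.21 ± 1.30, adjusted p = 0.468).

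**Figure D3:**
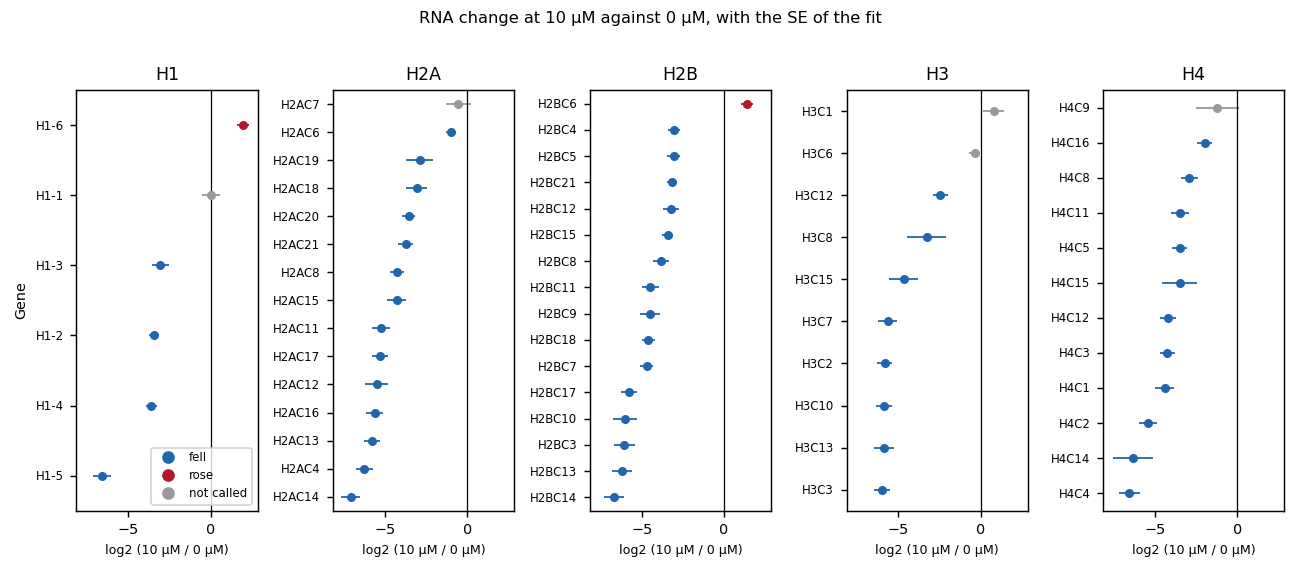
Each point is the log2 change of 1 tested gene at 10 µM against 0 µM, by histone type, with the SE of the fit as a bar and colour giving the call. H1-6 and H2BC6 alone lie right of 0 with a call, most genes lie between -3 and -7, and the points of H3C8 and H4C14, with 1 read at 10 µM, depend on the prior count; H2BC1 and H3C11 are not drawn.

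Gene form and position went with different sizes of the fall. Histone genes usually span under 1 kb, but some RefSeq records reach further, as for genes known to give polyadenylated messages too, H2BC5, H2BC12 and H2BC21 among them. Among genes of at least 1 CPM at 0 µM, the 6 with a span over 1 kb had a median log2 change of -3.12, and the 45 shorter ones -4.51. By position the medians were -3.60 in the first chromosome 6 block (29 genes tested), -4.47 in the second (5 genes), -5.63 in the third (15 genes) and -3.65 at 1q21 (10 genes). Unlike the span groups, the position groups include genes under 1 CPM at 0 µM. The third block includes H3C11, which had 0 reads at 0 and at 10 µM. All these medians are descriptions of overlapping groups, with no test.

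With 2 µM a different picture appeared: 8 genes rose, most of them low at 0 µM. Of the 61 genes tested, these 8 rose, 0 fell and 53 were not called, where 3.22% of all genes tested rose and 1.06% fell. The 8 are H1-1, H1-6, H2BC1, H2BC6, H3C1, H3C11, H3C12 and H4C9. They comprise 2 H1, 2 H2B, 3 H3 and 1 H4 gene, and no H2A gene. Of the 18 genes under 1 CPM at 0 µM 10 were tested, and 6 of these rose. H1-1, H2BC1, H3C1, H3C11 and H4C9 passed the filter on low counts through their 2 µM libraries, so that they had to be higher there. The number of low genes that rose is therefore a description only. Without 2 µM replicate 1, and likewise without replicate 2, 5 of the family rose.

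H1-1 had 0.0625, 0.0772 and 0.179 CPM at 0 µM, 5.47, 4.71 and 3.71 CPM at 2 µM and 0.0718, 0.115 and 0.142 CPM at 10 µM. It rose at 2 µM against 0 µM (log2 change 5.38 ± 0.48, adjusted p = 7.35e-05), by 5.97 without 0 µM replicate 3. H1-6 had 0.688, 0.412 and 0.358 CPM at 0 µM, 11.2, 11.1 and 5.63 CPM at 2 µM and 1.70, 1.86 and 2.14 CPM at 10 µM (log2 change 4.26 ± 0.39, adjusted p = 7.96e-05 at 2 µM against 0 µM). Both linker histone genes peaked at 2 µM, and the 10 µM libraries overlap those of 0 µM for H1-1 and lie above them for H1-6.

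H3C1 had 0.313, 0.0514 and 0.0512 CPM at 0 µM, 16.8, 13.4 and 7.31 CPM at 2 µM and 0.167, 0.211 and 0.303 CPM at 10 µM (log2 change 6.54 ± 0.60, adjusted p = 7.96e-05 at 2 µM against 0 µM, and 7.85 without 0 µM replicate 1). H3C12 had 3.25, 2.57 and 0.742 CPM at 0 µM, 33.4, 24.9 and 22.6 CPM at 2 µM and 0.287, 0.365 and 0.526 CPM at 10 µM (log2 change 3.63 ± 0.44, adjusted p = 7.32e-04 at 2 µM against 0 µM). H3C11 had 0 reads at 0 µM and 28, 25 and 14 reads at 2 µM, at least 19.2-fold higher against a floor of 3 reads over the group, and 0 reads at 10 µM. These genes code for H3.1, the replication-dependent form that H3C2, H3C3 and H3C10 also code for. H3C12 fell below its 0 µM level at 10 µM (log2 change -2.45 ± 0.47, adjusted p = 8.49e-04).

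H2BC6 had 1.97, 1.26 and 1.20 CPM at 0 µM, 16.8, 13.3 and 12.7 CPM at 2 µM and 3.04, 5.98 and 2.65 CPM at 10 µM (log2 change 3.27 ± 0.36, adjusted p = 4.36e-04 at 2 µM against 0 µM). H2BC1 had 77 reads over the 2 µM libraries and 2 over the 0 µM libraries, a ratio of 33.1 (95% counting interval 8.85 to 278), and 0 at 10 µM. H4C9 had 0.344, 0 and 0.0256 CPM at 0 µM, 4.32, 4.00 and 1.34 CPM at 2 µM and 0, 0.135 and 0 CPM at 10 µM (log2 change 4.78 ± 1.03, adjusted p = 0.0213 at 2 µM against 0 µM). Its log2 change was 7.68 without 0 µM replicate 1 and 4.17 without replicate 2. H2BC1, H3C11 and H4C9 each lost the call without 2 µM replicate 1 or 2, with adjusted p of 0.0573 to 0.126. H2BC1 also lost it without 0 µM replicate 1 (adjusted p = 0.0901), and H4C9 with DESeq2 (adjusted p = 0.137).

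The genes below the filter had few reads. H4C13 had 54 reads at 2 µM and 0 at 0 µM, at least 15.5-fold higher, and 11 reads at 10 µM. H2AC1, which forms a divergent pair with H2BC1, had 28 reads at 2 µM and 2 at 0 µM, a ratio of 12 (95% counting interval 3.03 to 104), and 0 at 10 µM. H2AC25 had 14 reads at 2 µM, 2 at 0 µM and 1 at 10 µM. H4C6 had 5 reads in total, all in 2 µM replicate 1. H3C14 had 36 reads at 2 µM, 26 at 0 µM and 0 at 10 µM, at least 11.3-fold lower at 10 µM than at 0 µM. The intervals and floors cover counting error only.

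**Figure D4:**
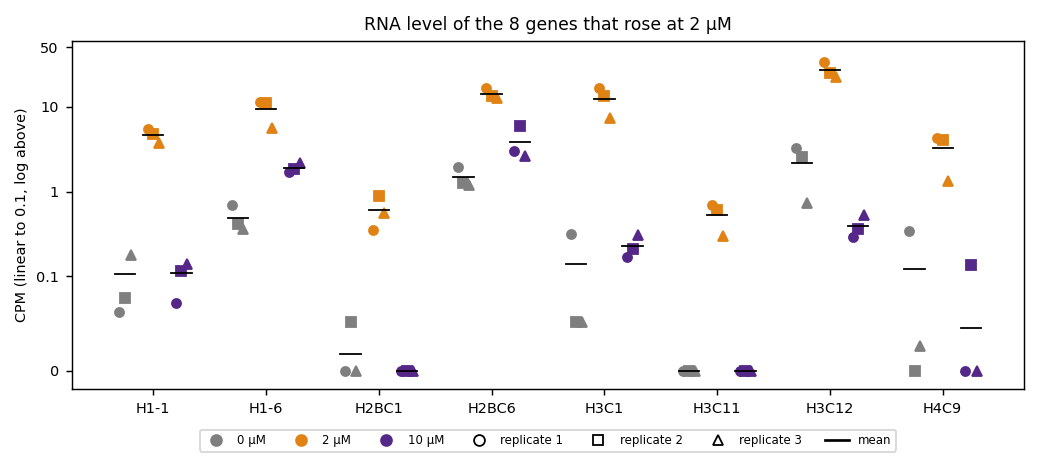
CPM of the 8 genes in each library at 0, 2 and 10 µM, on an axis that is linear to 0.1 and logarithmic above, with marker shape giving the replicate and the bar the mean. In all 8 genes the 2 µM libraries lie above every 0 µM library. The genes were picked by that same comparison, so this separation only describes them. H2BC6 and H1-6 stay above their 0 µM libraries at 10 µM.

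The 8 genes added little to the pool. Their summed mean was 72.0 CPM at 2 µM against 4.54 CPM at 0 µM, which is 1.27% of the family at 2 µM and 0.0448% at 0 µM. Among genes of at least 100 CPM at 0 µM, none was called at 2 µM. H1-4, with the smallest adjusted p among them, had 627, 430.3 and 401 CPM at 2 µM, against 1431, 1046 and 503 CPM at 0 µM (log2 change -1.03 ± 0.31, adjusted p = 0.0851). H3C3 had 227, 185 and 144 CPM at 2 µM, against 623, 409 and 163 CPM at 0 µM (log2 change -1.10 ± 0.38, adjusted p = 0.128). H2AC8 had 172, 140.3 and 95.7 CPM at 2 µM, against 467, 313 and 111 CPM at 0 µM (log2 change -1.13 ± 0.38, adjusted p = 0.127). In each of these 3 genes 0 µM replicate 3 lay within the range of the 2 µM libraries, and the other two 0 µM libraries lay above it. In each pair of libraries with the same number the 2 µM library was the lower one. With the replicate number as a block H1-4 was called (log2 change -0.97, adjusted p = 0.0456), and H2AC8 was not (adjusted p = 0.0918). Both were called by DESeq2 (adjusted p = 0.0222 and 0.0375), with no count filter and without 0 µM replicate 3.

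The members' median log2 change at 2 µM against 0 µM was -0.80, with 51 of 61 below 0, against -0.01 over all genes. None passed the edgeR test downwards, where 202 of 18999 genes tested fell. With an unadjusted p under 0.05 in the edgeR test there were 19 members with a negative change and 9 with a positive one. These shares were not counted over all genes, so the numbers are a description only. DESeq2 called falls in 4 members and in 472 genes in all. Without 0 µM replicate 3 the edgeR test called 33 falls among 63 members, with log2 changes between -1.60 and -0.98, and the median was -1.16. Over all genes 462 of 19733 fell in that fit. Without 0 µM replicate 1 the edgeR test called 0 falls in members and 96 in 19966 genes, and the members' median was -0.26. Without both libraries numbered 3 at 0 and 2 µM, an alternative chosen after seeing the data, 31 members fell, and 788 of 19257 genes did. Blocking on the replicate number gave 2 falls, where 302 of 18999 genes fell. Testing with no count filter gave 31 of 66 members, where 673 of 34824 genes fell. The count of falls at 2 µM thus moved with 1 control library, the filter and the tool.

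From 2 to 10 µM the fall was general. At 10 µM against 2 µM 57 of 61 tested genes fell, 0 rose and 4 were not called, where 21.6% of all genes tested fell and 16.8% rose. No member with a positive change had an unadjusted p under 0.05, and the median log2 change was -3.95, against -0.02 over all genes. All 8 genes that had risen at 2 µM fell here and are among the 57. They were picked as high in the same 2 µM libraries, and H1-1, H2BC1, H3C1, H3C11 and H4C9 passed the filter through them. Their falls are therefore a description only. H1-1 had 0.0718, 0.115 and 0.142 CPM at 10 µM, against 5.47, 4.71 and 3.71 CPM at 2 µM (log2 change -5.35 ± 0.46, adjusted p = 3.51e-06). H3C1 (log2 change -5.75 ± 0.55, adjusted p = 7.45e-06) and H3C12 (log2 change -6.08 ± 0.51, adjusted p = 2.61e-06) fell as well. H2BC1 and H3C11, with 0 reads at 10 µM, were at least 28.7-fold and at least 25-fold lower. H1-6 and H2BC6 had smaller log2 changes, -2.29 and -1.87. The abundant genes fell too, without the wide spread of the 0 µM group. H3C2 had 9.45, 12.8 and 13.3 CPM at 10 µM, against 454, 368 and 253 CPM at 2 µM (log2 change -4.92 ± 0.44, adjusted p = 4.42e-06). H4C4 had 2.87, 3.06 and 3.54 CPM at 10 µM, against 197, 149.8 and 81.8 CPM at 2 µM (log2 change -5.50 ± 0.61, adjusted p = 2.21e-05). H2AC14 had 1.29, 1.44 and 2.2 CPM at 10 µM, against 150.3, 124 and 78.0 CPM at 2 µM (log2 change -6.15 ± 0.55, adjusted p = 4.20e-06). H2BC14 showed the same separation (log2 change -6.37 ± 0.60, adjusted p = 6.35e-06). H1-3, H4C15 and H4C16 lost their calls in 2 or more alternatives, among them without 2 µM replicate 1 (adjusted p = 0.0791, 0.0783 and 0.0866). The genes not called were H2AC6, H2AC7, H2AC19 and H3C6. H2AC6 had 189, 152 and 166 CPM at 10 µM, against 309, 263 and 150.5 CPM at 2 µM, which overlap (log2 change -0.51 ± 0.32, adjusted p = 0.226).

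Genes that share the histones' tasks or timing were compared next, in lists chosen for their roles. Over all genes tested, 25.1% fell and 23.0% rose at 10 µM against 0 µM. Of 49 S phase genes, 41 fell, 0 rose and 8 were not called at 10 µM against 0 µM, with a median log2 change of -1.87, less than the histones' -4.24. Of 13 tested replication-independent histone genes, 7 fell and 1 rose, with a median of -0.78. CENPA, the centromere form of H3, fell (log2 change -4.93 ± 0.28, adjusted p = 1.30e-07), as did H2AZ1 (log2 change -1.75 ± 0.26, adjusted p = 1.51e-04) and H2AZ2 (log2 change -1.50 ± 0.20, adjusted p = 5.75e-05). H3-3B, which codes for H3.3 and is used outside S phase, had 771, 832 and 780.1 CPM at 10 µM, against 797, 944 and 546 CPM at 0 µM (log2 change 0.06 ± 0.22, adjusted p = 0.848). H3-3A, coding for the same protein, fell (log2 change -0.78 ± 0.19, adjusted p = 0.00455). The gene that rose is H2AB1, a testis H2A form with 0 reads at 0 µM.

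Histone chaperones, which carry new histones to DNA, fell in 14 and rose in 5 of 28 tested genes, with a median of -0.62. HJURP, the chaperone of CENPA, fell (log2 change -3.49 ± 0.27, adjusted p = 9.63e-07). ASF1B and NASP, chaperones of new H3 and H4, fell as well (log2 change -3.98 ± 0.36, adjusted p = 2.77e-06 for ASF1B and log2 change -2.10 ± 0.22, adjusted p = 8.86e-06 for NASP). Of 25 tested genes for transcription, processing and decay of histone messages, 8 rose and 3 fell, with a median of 0.37. Both lists stand beside 23.0% of all genes tested that rose and 25.1% that fell. EXOSC10, an exosome nuclease, had 226, 244 and 216 CPM at 10 µM, against 101, 109 and 74.7 CPM at 0 µM (log2 change 1.27 ± 0.18, adjusted p = 1.10e-04). UPF1, a helicase that acts in histone message decay, had 345, 316 and 350.5 CPM at 10 µM, against 159.6, 125 and 150.2 CPM at 0 µM (log2 change 1.22 ± 0.19, adjusted p = 1.82e-04). HINFP, an activator of H4 genes, rose as well (log2 change 1.20 ± 0.21, adjusted p = 4.57e-04). SLBP and NPAT, the stem-loop binding protein and the S phase activator of histone genes, were not called (log2 change -0.40 ± 0.27, adjusted p = 0.240 for SLBP and log2 change 0.04 ± 0.20, adjusted p = 0.897 for NPAT). At 2 µM against 0 µM none of the S phase, chaperone or message factor genes was called in the fit over all libraries. Calls in these lists were not counted without 0 µM replicate 3. In that library the S phase sum was 2759 CPM, below the 4388, 4151 and 4386 CPM at 2 µM. The other 0 µM libraries, with 6518 and 6121 CPM, lay above them.

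Neighbours inside the chromosome 6 region rose and fell in nearly equal numbers. Of 20 RefSeq protein-coding genes there that are no histones, 14 were tested, 5 rose and 6 fell at 10 µM against 0 µM. Their median log2 change was 0.27. Over all genes tested, 23.0% rose and 25.1% fell. BTN2A1 had 100.3, 103 and 109 CPM at 10 µM, against 30.9, 30.7 and 30.5 CPM at 0 µM (log2 change 1.76 ± 0.16, adjusted p = 3.24e-06). SLC17A2 fell (log2 change -5.57 ± 0.79, adjusted p = 9.08e-05), and TRIM38 rose (log2 change 1.33 ± 0.27, adjusted p = 0.00118). None of the 14 was called at 2 µM.

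Log2 changes at the members' peaks were smaller than those of their RNA. Of 81 member peaks, 29 fell, 13 rose and 39 were not called at 10 µM against 0 µM, where 27.6% of all peaks fell and 29.9% rose. The median log2 change was -0.20 for member peaks and 0.05 for all peaks. At 2 µM against 0 µM 6 rose, 2 fell and 73 were not called, where 15.5% of all peaks rose and 7.30% fell. At 10 µM against 2 µM 28 fell, 6 rose and 47 were not called, where 27.6% of all peaks fell and 27.5% rose. Of the 34 peaks annotated as promoters, 10 fell and 4 rose at 10 µM against 0 µM, with a median of -0.18, where 14.9% of all 19763 promoter peaks fell and 20.5% rose, with a median of 0.09. The count of 13 rises depends on the setting, with 6 by DESeq2 and 8 with scaling by total counts.

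For 33 tested genes a peak overlapped the promoter window, 25 peaks in all, since some pairs of genes share one. Their RNA had a median log2 change of -4.29 at 10 µM against 0 µM, and their promoter peaks one of -0.15, with 7 peaks fallen and 3 risen. The peak over the start of H3C2 had 30.2 and 22.2 CPM at 10 µM, against 39.8, 38.6 and 44.7 CPM at 0 µM (log2 change -0.63 ± 0.16, adjusted p = 9.48e-04). The peak shared by H2AC14 and H2BC14 (chr6:27814668-27815168), whose genes fell most, had 12.9 and 8.70 CPM at 10 µM, against 22.3, 17.4 and 19.3 CPM at 0 µM (log2 change -0.81 ± 0.20, adjusted p = 5.92e-04). The promoter peak of H2BC3 had 17.4 and 18.5 CPM at 10 µM, against 37.3, 27.6 and 40.9 CPM at 0 µM (log2 change -0.96 ± 0.17, adjusted p = 1.28e-05). Those of H4C5, H4C8 and H4C16 rose, by log2 changes of 0.36, 0.71 and 0.48, while their RNA fell. The H4C5 call was lost in 10 alternatives (adjusted p = 0.0535 to 0.215) and the H4C16 call in 8 (adjusted p = 0.0626 to 0.431), while the H4C8 call was lost in none of those run. Of the peaks that fell, those of H2AC4, H2AC21 and the pair H2AC11 and H2BC11 lost the call without 10 µM replicate 1 (adjusted p = 0.121, 0.129 and 0.373). The promoter peak of H4C4 was not called (log2 change -0.10 ± 0.17, adjusted p = 0.647), although its RNA change was -6.57.

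**Figure D5:**
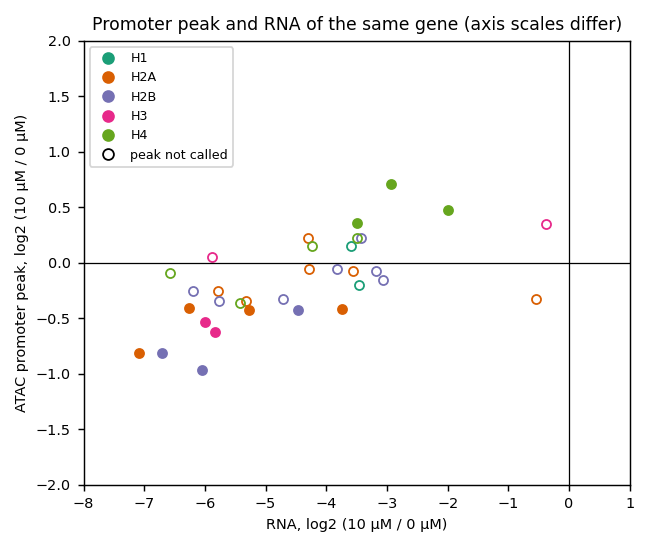
Each point is 1 gene with a peak on its promoter window, with the RNA log2 change at 10 µM against 0 µM on the x axis and that of the peak on the y axis, filled where the peak was called. RNA changes reach -7.09 while peak changes stay between -0.96 and 0.71, and the axes have different scales.

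Among the genes that rose at 2 µM, H3C12 had a peak at its start (chr6:27890606-27891106). It had 2.18, 1.5 and 1.33 CPM at 0 µM, 14.8, 13.8 and 14 CPM at 2 µM and 1.48 and 3.26 CPM at 10 µM. It rose at 2 µM against 0 µM (log2 change 3.11 ± 0.29, adjusted p = 7.44e-09) and fell at 10 µM against 2 µM (log2 change -2.68 ± 0.31, adjusted p = 1.56e-08), as the RNA did. The second change was -2.08 without 10 µM replicate 1 and -3.27 without 10 µM replicate 2. At 10 µM against 0 µM it was not called (log2 change 0.43 ± 0.42, adjusted p = 0.400). No peak of the set, counted or not, overlapped the gene or the 250 bases on either side for H1-1, H1-6, H2BC1, H2BC6, H3C1, H3C11 or H4C9. Of the 18 genes under 1 CPM at 0 µM 3 had a counted peak in that range, H2AC7, H3C4 and H4C15, against 38 of the 51 others. A peak set is built from regions the caller found, so no peak says only that none was listed.

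The deepest falls of the set at 10 µM against 0 µM were at peaks not annotated as promoters, although the medians were close, -0.20 for these and -0.18 for promoter peaks. An intronic peak assigned to H2BC9 (chr6:26260098-26260598), 8484 bases from the start, had 2.82 and 1.74 CPM at 10 µM, against 14.3, 15.5 and 14.6 CPM at 0 µM (log2 change -2.63 ± 0.27, adjusted p = 5.84e-10), and it fell at 2 µM as well (log2 change -1.15 ± 0.21, adjusted p = 1.76e-04). Peaks just past H3C3 (chr6:26046032-26046532) and H2AC17 (chr6:27892023-27892523) fell too, the first with 2.68 and 3.70 CPM at 10 µM against 16.5, 11.4 and 15.5 CPM at 0 µM (log2 change -2.19 ± 0.27, adjusted p = 1.40e-08). The one at H2AC17 had 1.88 and 5.00 CPM at 10 µM, against 16.5, 12 and 13.8 CPM at 0 µM (log2 change -2.13 ± 0.30, adjusted p = 2.39e-07), and its log2 change was -1.48 without 10 µM replicate 1 and -2.94 without 10 µM replicate 2. Of 14 peaks annotated to a 3′ UTR, 8 fell and 1 rose at 10 µM against 0 µM, with a median of -0.51, and over all such peaks 39.9% fell and 22.8% rose.

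Some peaks went up. Of a pair placed at -10646 and -11276 bases from the start of H4C8, the peak chr6:26296180-26296680 had 31.1 and 33.3 CPM at 10 µM, against 11.6, 11.7 and 9.09 CPM at 0 µM (log2 change 1.57 ± 0.17, adjusted p = 1.18e-09). Its neighbour chr6:26296810-26297310 had 18.4 and 13.0 CPM at 10 µM, against 2.91, 4.49 and 4.73 CPM at 0 µM (log2 change 1.94 ± 0.26, adjusted p = 6.45e-08). At 2 µM the first had already risen (log2 change 0.66 ± 0.17, adjusted p = 0.00532), a call lost without 0 µM replicate 3 (adjusted p = 0.0723). An intronic peak of H2BC5 (chr6:26159865-26160365) was called at 2 µM against 0 µM, with 11.9, 5.44 and 6.06 CPM at 0 µM, 25.8, 21.3 and 16.9 CPM at 2 µM and 7.24 and 13.5 CPM at 10 µM (log2 change 1.48 ± 0.25, adjusted p = 4.22e-05 at 2 µM against 0 µM). A second H2BC5 peak, at -361 bases from the start, rose at 2 µM (log2 change 0.52 ± 0.14, adjusted p = 0.00803, lost without 0 µM replicate 2 or 2 µM replicate 1) and fell at 10 µM against 2 µM (log2 change -1.52 ± 0.17, adjusted p = 8.94e-09). The peak assigned to H2BC13 (chr6:27792649-27793149), 14780 bases away, fell at 2 µM (log2 change -0.69 ± 0.18, adjusted p = 0.00427), a call lost without 0 µM replicate 2 (adjusted p = 0.0726).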

How the data were processed

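RNA was measured in 9 libraries and open chromatin in 8. The authors deposited raw read counts per gene and per peak of 501 bp. Per the submitters' processing notes the tools were HISAT2 2.2.1, HTSeq 2.0.4, DESeq2 1.42.1 and DiffBind 3.12.0 with hg38, without their roles. Neither the peak caller, nor the annotation release, nor use of strand in counting is given in the sources used here. Where genes overlap or lie antisense to each other, their reads may therefore be mixed. Of the gene identifiers 62666 matched a symbol. The authors also deposited counts divided by size factors, a signal used only to check columns. Its 10 µM columns 2 and 3 hold what the count table calls 3 and 2, which leaves dose groups unchanged. The replicate block over all doses and statements on 10 µM RNA replicates 2 and 3 follow the count table's numbering, which may be wrong. The score the authors deposited with each of 63621 consensus peaks was not used; 5249 of them had no counts here.

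Each assay was fitted once over all its libraries with edgeR 4.0.16 (limma 3.58.1, R 4.3.3): TMM scaling, the tool's filter on low counts, and the quasi-likelihood test with Benjamini-Hochberg adjustment over 18999 genes or 58372 peaks, called at 0.05. The prior count was 0.125, CPM uses scaled library sizes, and the SE is the log2 change divided by the root of F. The procedure was tested on simulated data. Tables and plots used Python 3.11.15, pandas 2.3.3, scipy 1.17.1 and matplotlib 3.10.9. Depth is given with the results. A floor of 3 reads over a group stands for 0 reads, and intervals are at 95%.

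Members and lists were chosen with earlier results of these data known. Named genes are, per type and comparison, the 3 tested members with the smallest adjusted p and the 2 with the highest mean, and per context list up to 3 genes. Named peaks are the 5 with the smallest adjusted p per comparison, peaks called against the majority, and those nearest the start of named genes. Any other gene or peak was named after its values were seen, such as H2AC6 in its lost calls, H3-3A, H3-3B, SLBP, NPAT, LYZ and members below the filter.

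Alternatives were other scalings, DESeq2 1.42.0, no filter, the replicate number as a block, only the doses compared, and each library left out. In RNA, libraries of 0 and 2 µM with the same number deviated together (r = 0.46, 0.46 and 0.37), and those of 10 µM did not.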

Additional observations from a re-analysis of the deposited data

How the results depend on the processing

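No result reversed. In RNA, 50 of 54 calls at 10 µM against 0 µM, 5 of 8 at 2 µM against 0 µM and 54 of 57 at 10 µM against 2 µM held in every alternative run; in ATAC the counts were 24 of 42, 3 of 8 and 21 of 34. Members that rose in RNA at 2 µM numbered 5 to 10 with 1 library left out, against 8. Members that fell there, 0 in edgeR, numbered 4 with DESeq2, 31 with no filter, 0 to 33 with 1 library left out and 31 without both libraries numbered 3, a choice made after seeing the data. With the replicate block 2 fell, and with a replicate block over 0 and 2 µM alone, also added later, 8 rose and 0 fell. Member peaks that rose at 10 µM against 0 µM numbered 8 with total counts, 6 with DESeq2, 8 with only those doses and 7 to 13 with 1 library left out, against 13. At 2 µM against 0 µM peaks that rose numbered 3 to 7 with 1 library left out, and those that fell numbered 5 with only those doses, 7 with the replicate block over 0 and 2 µM and 2 to 5 with 1 library left out. At 10 µM against 2 µM peaks that rose numbered 3 to 7 with 1 library left out. Leaving out a 10 µM ATAC library leaves 1, assumed to vary like the other groups. The causes were not tested. Scaling by total counts moved the median of all genes to 0.24 at 10 µM and 0.15 at 2 µM against 0 µM.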
